A study of Drosophila melanogaster with 3 samples.

Results

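The authors' list of 16640 regions from pooled CG1602 ChIP-seq data is labelled by them as peaks and background, so not every region is a called peak. Of these regions, 5404 were weak and lay far from any promoter, and these are described here as weak distal regions. They were chosen by 2 criteria. The first was a measured value, a pooled signal below the lowest of the authors' IDR list, the peaks kept by the irreproducible discovery rate, which scores how consistently peaks rank between replicates. The second was a summit more than 2000 bp from every transcription start site (TSS) of an annotated gene, pseudogenes and transposable elements left out. The IDR list held 4599 of the pooled regions (27.6%), exactly the strongest ones, so 12041 lay below it and the weak distal regions were 5404 of those. Where a comparison is made, it is with the 1360 IDR peaks that met the same distance criterion (strong distal peaks) or with the 6637 weak regions within 2000 bp of a TSS.

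Chromatin came from whole Drosophila melanogaster embryos of both sexes, aged 0 to 24 h, from a transgenic line that stably carries CG1602 fused at its C terminus to GFP. An antibody against GFP was used, and 3 biological replicates with 1 shared control form the only group. The collection mixes all tissues and all embryonic stages, so a region bound in few cells cannot be told apart from a region bound weakly in many. The regions rest on a tagged protein from a transgene, and untagged embryos were not analysed here.

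CG1602 encodes a C2H2 zinc finger protein, a class of DNA-binding proteins in which an array of fingers reads a particular stretch of bases. Peak callers are often asked for a long list of weak regions so that IDR can find where replicates stop ranking regions alike, and such a list then holds weak binding together with background. In flies, sequence far from promoters includes the enhancers of developmental genes, many of them within introns.

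Of 15 motifs searched, with no search over other words, the one whose frequency at weak distal summits differed from the flanks with the smallest p was an 8-bp word, CACTGAGA, which an earlier analysis of these data had found in the IDR peaks. The word lay within 100 bp of the summit in 188 weak distal regions. It is printed here at the 6 strongest of these outside the arm whose sequence is not printed, in 61 bp of the dm6 reference (RefSeq) read along the strand of the word. Capitals mark the word, which in each of the 6 is followed by a purine and then 3 adenines.
Awh intron, chr3L:3851941-3852001, plus strand: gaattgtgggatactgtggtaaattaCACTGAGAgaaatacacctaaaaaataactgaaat
tai intron, chr2L:9224843-9224903, minus strand: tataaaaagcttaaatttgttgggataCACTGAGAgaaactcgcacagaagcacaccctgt
intergenic near lncRNA:CR45755, chr3L:16181598-16181658, minus strand: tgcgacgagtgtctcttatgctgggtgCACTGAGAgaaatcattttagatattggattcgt
Vsx1 intron, chrX:5604407-5604467, minus strand: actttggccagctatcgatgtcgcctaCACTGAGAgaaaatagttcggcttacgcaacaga
intergenic near disco-r, chrX:16158814-16158874, minus strand: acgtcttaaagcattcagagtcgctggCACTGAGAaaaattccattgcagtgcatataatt
CG42747 intron, chr3L:6482933-6482993, plus strand: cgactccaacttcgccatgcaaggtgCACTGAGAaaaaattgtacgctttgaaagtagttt
For comparison, the 2 strongest distal IDR peaks with the word outside the same arm, both intergenic, read as follows.
strong peak near slp2, chr2L:3832557-3832617, minus strand: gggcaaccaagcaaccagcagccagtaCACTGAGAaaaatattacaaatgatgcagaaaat
strong peak near CG43401, chr2L:1433951-1434011, minus strand: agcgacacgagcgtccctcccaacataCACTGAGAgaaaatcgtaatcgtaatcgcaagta

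Most weak distal regions do not hold that word. The 6 strongest of all, again outside the arm left out, are shown as 61 bp centred on the summit with no part in capitals. Mean GC content at the summit was lowest in the strongest regions, so these 6 do not stand for the rest. Only the Awh region holds the word, 42 bp from its summit and so outside this window.
CG1677 intron near brk, chrX:7302510-7302570, plus strand: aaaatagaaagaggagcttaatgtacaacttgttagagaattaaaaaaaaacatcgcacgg
intergenic near lncRNA:CR44801, chr2L:974245-974305, plus strand: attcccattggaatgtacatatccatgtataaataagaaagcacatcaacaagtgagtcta
bbg intron, chr3L:14451754-14451814, plus strand: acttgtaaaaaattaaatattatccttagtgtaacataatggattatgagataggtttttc
raskol intron, chrX:17743043-17743103, plus strand: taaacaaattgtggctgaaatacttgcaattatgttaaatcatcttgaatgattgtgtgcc
Antp intron, chr3R:6912721-6912781, plus strand: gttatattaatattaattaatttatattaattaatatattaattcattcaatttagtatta
Awh intron, chr3L:3851983-3852043, plus strand: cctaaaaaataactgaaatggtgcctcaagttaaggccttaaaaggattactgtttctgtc

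The pooled signal of the weak distal regions ran from 41.0 to 108.108, with a median of 52.1, on the authors' own scale. Just above the limit, the weakest IDR peak was itself distal, nearest to the TSS of pum, and had a signal of 108.158. Just below it, the strongest pooled region outside the IDR list had 108.153 and lay 709 bp from the TSS of del, so it was not distal. At the distance limit, the nearest weak distal region was 2001 bp from a TSS and the farthest weak region left out was 2000 bp away, near Hecw. The median distance to a TSS was 5501 bp, and 1 region in an intron of Myo81F was 320429 bp from any. All 5404 regions had the same width of 416 bp, so width carries no information on the extent of binding. The deposited q-value was below 0.05 for 869 of them (16.1%), against 41.6% of all pooled regions, and these 869 all belonged to the strongest of 4 bands of 1351 regions each, ordered by signal. Because signal and q come from the readout that chose the regions, they are given as a description.

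The 15 strongest weak distal regions had pooled signals from 107.154 to 108.108. The first, of signal 108.108, stood 5399 bp from the TSS of brk, a repressor of Dpp target genes, within introns of CG1677 and of a long non-coding RNA. Its signal was 24.9, 36.6 and 41.7 in replicates 1, 2 and 3, where it ranked 7243rd, 3222nd and 5223rd. The second, near lncRNA:CR44801, ranked 3050th and 3135th in replicates 2 and 3 and overlapped no region of replicate 1. A region in an intron of bbg, a PDZ-domain protein, ranked 3719th and 4527th in replicates 1 and 3 but 23509th in replicate 2, and one in an intron of Ntan1, an N-terminal amidase, ranked 3952nd, 20687th and 4499th. In the last 2 of these, the rank in replicate 2 was far below those in the other lists.

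Other regions among the 15 strongest were found in all 3 lists. An intron of nkd, an inhibitor of Wingless signalling, held a region (chr3L:19041642-19042057) with signals of 47.3, 16.3 and 44.6 in replicates 1, 2 and 3, where it ranked 3326th, 10094th and 4828th. An intron of fz2, a Wingless receptor, held one with 37.5, 20.6 and 42.5, and an intron of Awh, a LIM-homeodomain factor, one with 40.8, 39.4 and 29.8. Introns of klar, Ac76E, raskol and Agpat2 held further ones. The region in an intron of the Hox gene Antp had a pooled rank of 4622 but overlapped replicate regions ranked far higher, 1021, 558 and 1136. An overlap of 1 bp was enough, and whether these ranks belong to a stronger neighbour was not tested. Signals are on the scale of each list and are not compared in size between lists.

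The 10 weakest regions, with pooled signals from 40.9528 to 40.9763, were found in introns of amon, MYPT-75D, SKIP, bbg, cwo and comm3, in a coding exon of Set1 and in 3 intergenic places, 1 of them near Osi7. The region at Osi7 overlapped no replicate list, and 4 others overlapped 1 list. The cwo region is an exception, with ranks of 1710, 1386 and 2330 in the replicate lists. Overlap by at least 1 bp can join a weak pooled region to a stronger neighbour: 150 weak distal regions (2.78%) overlapped an IDR peak, and of those held by replicates 1, 2 and 3, 4.00%, 3.86% and 3.76% were held through a region that also overlapped an IDR peak.

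Of the weak distal regions, 2157 (39.9%, 95% exact binomial interval 38.6 to 41.2) overlapped a region in all 3 replicate lists, against 59.2% of all pooled regions. Another 2093 overlapped 2 lists, 1095 overlapped 1 and 59 overlapped none. Replicates 1, 2 and 3 held 69.4%, 73.3% and 74.8% of them. In the strongest band 87.7% were in all 3 lists, against 47.3%, 17.02% and 7.62% in the next bands. The pooled list was made from the same reads as the replicate lists, so no test is given. Seen from the replicate lists, weak distal regions took up 20.2%, 13.8% and 20.8% of the 17580, 27164 and 18386 regions of replicates 1, 2 and 3. Among the 2157 regions found in all lists, signals in pairs of replicates had a Spearman's rho of 0.372 to 0.466 and a Pearson's r of log2 signal of 0.51 to 0.61. Among the 1355 strong distal peaks in all lists rho was 0.668 to 0.767 and r was 0.74 to 0.83. These values are across regions that share libraries and a control, and the weak regions span a narrower range of signal.

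**Figure D1:**
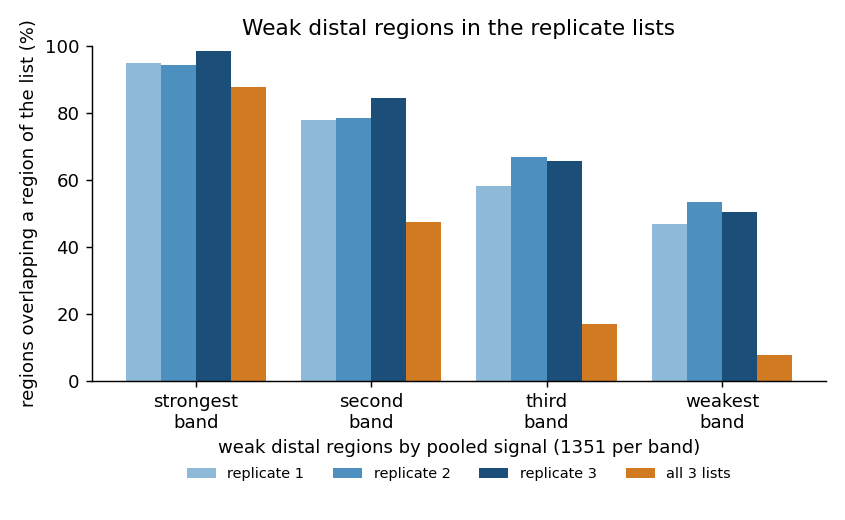
Share of weak distal regions (%, vertical axis) that overlap a region of each replicate list (blue bars) or of all 3 lists (orange bars), by band of pooled signal. In the strongest band each list holds 94.2% or more of them, and in the weakest band 46.7% to 53.4%.

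Introns held most of these regions. By annotation of the summit, 3336 regions (61.7%) were intronic and 1663 (30.8%) intergenic, 204 (3.77%) lay in 3′ UTRs, 151 (2.79%) in coding exons, 30 in non-coding exons and 20 in 5′ UTRs. Of all sequence more than 2000 bp from a TSS, 49.5% is intron, 35.1% intergenic, 9.93% coding exon and 4.68% 3′ UTR. Coding exons and 3′ UTRs took a larger share of weak than of strong distal summits. The share in coding exons was 2.79% (interval 2.37 to 3.27) against 0.294% (0.0802 to 0.751), an odds ratio of 9.74 with an adjusted p of 5.31e-10 (two-sided Fisher's exact test, Benjamini-Hochberg over 6 classes). The 4 strong distal peaks in coding exons lay in otp, Pde1c, klar and the overlapping HisRS and Bx. The share in 3′ UTRs was 3.77% against 0.956%, with an odds ratio of 4.06 (exact test, adjusted p = 1.31e-08). Introns took a smaller share, 61.7% against 67.1%, with an odds ratio of 0.79 (exact test, adjusted p = 0.000477).

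Within the weak distal regions the coding-exon share was higher at low signal. The bands were cut on the signal that chose the regions, so tests between bands, here and below, only describe this set. In the weakest band 66 regions (4.89%) lay in coding exons against 5 (0.37%) in the strongest, an odds ratio of strongest to weakest of 0.0723 (adjusted p = 1.30e-13, Fisher's exact test, Benjamini-Hochberg over 22 features). The 5 in the strongest band lay in fuss, a Ski-family corepressor gene, corto, sim, which encodes the bHLH-PAS regulator of the midline, ImpE1 and RhoGAP102A. The 3′ UTR share was 1.70% in the strongest and 5.55% in the weakest band (exact test, adjusted p = 5.76e-07), and the intron share 66.0% and 59.0% (adjusted p = 0.000818). Among regions held by all 3 replicate lists, the coding-exon odds ratio against strong distal peaks was 3.33 (exact test, adjusted p = 0.0660) and no class passed the threshold. Keeping regions held by both other lists, the odds ratio was 5.70 without replicate 1, 4.88 without replicate 2 and 5.32 without replicate 3. The 3′ UTR odds ratio was 2.48 without replicate 2, and the intron call was lost without replicate 1 (exact test, adjusted p = 0.0670), without replicate 2 (adjusted p = 0.0824), over 5000 bp from a TSS (adjusted p = 0.144) and in the stronger 2 bands (adjusted p = 0.139). These p-values, like all below, count regions, which are not biological replicates.

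**Figure D2:**
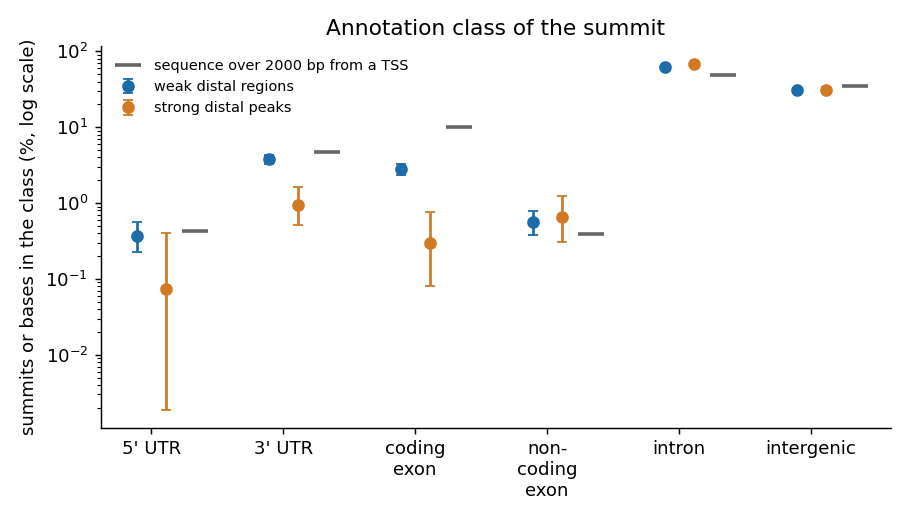
Share of summits in each annotation class (%, log scale) for weak distal regions (blue) and strong distal peaks (orange), shown as points with 95% exact binomial intervals, while grey marks give the share of all sequence over 2000 bp from a TSS. In coding exons the weak regions stand at 2.79%, between 0.294% of strong distal peaks and 9.93% of sequence.

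On average over weak distal regions, GC content had a narrow dip at the summit with GC-richer shoulders. Mean GC content in the 201 bp at the summit was 37.7% ± 7.69 (SD, n = 5404 regions), and 40.7% ± 6.24 in the windows 1000 bp to either side. The summit window was the lower of the pair in 3447 regions (63.8%) and the higher in 1914 (exact binomial sign test, two-sided, p = 1.50e-98). At strong distal peaks the summit stood at 34.1% ± 5.96 (SD, n = 1360) and was lower in 80.5%, a larger share than at weak regions (odds ratio 0.426, adjusted p = 5.59e-33, Fisher's exact test over 8 shares). With a window of 200 bp on each side, that odds ratio was 0.925 (exact p = 0.216). Weak regions near a TSS had 38.3% at the summit and 42.7% in the flanks, and 66.5% of them were lower at the summit.

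The depth of the dip followed the pooled signal. In the strongest band the 50-bp bins beside the summit had 33.7% and 33.4% GC, close to the 31.6% and 31.8% of strong distal peaks, while the weakest band had 39.6% and 40.0%. The shoulders, in the bins centred 275 bp to either side, reached 44.2% and 44.3% in the strongest band, 41.4% and 41.9% in the weakest, and 45.5% and 45.0% at strong distal peaks. By 975 bp the curves lay between 40.2% and 40.8%. Regions in coding exons ran the other way, with 51.3% ± 7.53 (SD, n = 151 regions) at the summit against 43.6% in the flanks, and only 33 of them were lower at the summit. Their flanks need not be coding, and coding exons elsewhere were not set beside them. Regions in introns had 37.3% against 40.6%, those between genes 37.2% against 40.7% and those in 3′ UTRs 37.4% against 40.0%.

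**Figure D3:**
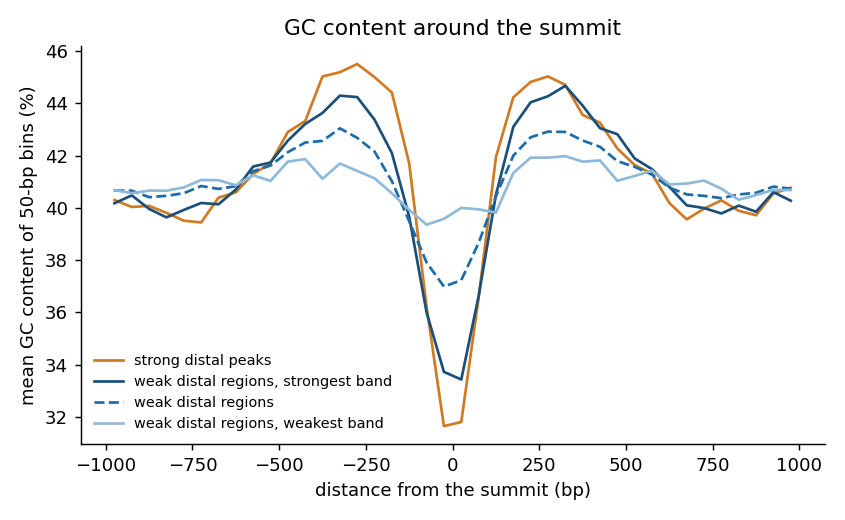
Mean GC content (%, vertical axis) in 50-bp bins by distance from the summit (bp). The strongest band of weak distal regions (dark blue) dips to 33.4% beside strong distal peaks (orange, 31.6%), all weak distal regions (dashed) to 37.0%, and the weakest band (light blue) to 39.4%.

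A set of 15 motifs was searched for in the 201 bp around each summit, counting either strand and each region once, and 7 were more frequent there than 1000 bp downstream and 2 were less frequent (two-sided exact McNemar test, Benjamini-Hochberg over 15). In brackets stands the share of 415507 windows of the same length, tiled over sequence far from a TSS, that hold each motif. Elements of core promoters were the DRE, TATCGATA (0.421%), the Motif 1 core, GGTCACACT (0.0934%), the Motif 6 core, GTATNTTT (6.41%), and the TATA box, TATAAAA (9.34%). Cores bound by insulator proteins were those of Su(Hw), TTGCATAC (1.14%), and of CTCF, AGGNGGC (7.55%). The GAGA motif was GAGAGAG (2.31%). The E-box was CAGCTG (7.71%). The Zelda motif, of the early genome activator, was CAGGTAG (0.965%). The Grainyhead motif was AACCGGTT (0.147%), and the AP-1 motif was TGANTCA (3.77%). Simple runs were the CA repeat, CACACACA (4.26%), the A tract, AAAAAAAA (11.2%), and the AT repeat, ATATATAT (3.42%). CACTGAGA was the last (0.644%). Matches of different motifs shared bases in few regions, at most 32 for the TATA box with the A tract, and 4 for the A tract with CACTGAGA. A match is a description of letters and not evidence that a factor was there.

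CACTGAGA had the smallest p of these, a rank not independent of its choice, because an earlier analysis of these data had found it. It was found at 188 weak distal summits (3.48%, interval 3.01 to 4.00) and in 36 of the downstream windows (0.666%), with no region holding it in both, a ratio of 5.22 (exact test, adjusted p = 7.66e-25). Among all pooled regions 2.88% held it, and of the tiled windows far from a TSS, 0.644%. Among weak regions near a TSS it was found in 1.55%, less than at weak distal regions (odds ratio 2.29 for distal to near, adjusted p = 4.45e-11, Fisher's exact test). At strong distal peaks its share was 7.79% (interval 6.43 to 9.35), higher than at weak distal regions (odds ratio 0.426, exact test, adjusted p = 1.19e-09), but the word was first found in IDR peaks, so that comparison is not independent of how it was chosen. Within 50 bp of the summit the shares were 1.78% and 2.06% and did not differ past the threshold (odds ratio 0.860, exact test, adjusted p = 0.678).

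The word became more frequent with signal within the weak distal regions. These are outside the IDR list but come from the same reads, and 150 of them overlapped an IDR peak. They are thus not independent of the data in which the word was found. CACTGAGA was found in 1.33%, 3.03%, 4.07% and 5.48% of regions from the weakest to the strongest band, an odds ratio of 4.29 between the end bands (adjusted p = 1.88e-08, Fisher's exact test over 22 features). In the downstream windows the same bands held it in 0.370%, 0.592%, 0.592% and 1.11%. By the number of replicate lists that held the region, its share was 1.69% for none, 1.55% for 1, 3.20% for 2 and 4.78% for all 3, of 59, 1095, 2093 and 2157 regions. It was found in 4.33% of intergenic and 3.27% of intronic regions, and in 3 of 151 in coding exons, at CG11658, H15 and CG31140. In 6 regions it occurred in 2 copies.

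The bases around the word also followed a pattern, which was looked for after the data had been seen and is given with no test. Of the 200 places of the word within 100 bp of a weak distal summit, 89.5% had A or G just before it, 92.5% had A or G just after it, and 63.5% had AAA from the second base after it. All 3 features together were found at 57.5% of places (interval 50.3 to 64.4), at 78.0% of the 118 places at strong distal peaks and at 23.9% of the 2188 places far from a TSS and more than 500 bp from any pooled summit. Of the 852 places in the genome far from a TSS that had all 3 features, 13.5% lay within 100 bp of a weak distal summit and 10.7% within 100 bp of a strong distal one. Of the 1939 places without them, 4.33% and 1.29% did. Most places of the word far from promoters were thus outside the pooled regions.

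The summit lay mostly on 1 side of the word. Read along the strand on which CACTGAGA is written, the summit was on its 3′ side, where the adenines follow, at 159 of the 199 places centred within 100 bp of a summit (79.9%, interval 73.7 to 85.2), with a median offset of 43 bp. At strong distal peaks it was on that side at 112 of 118 places (94.9%) with a median offset of 70.5 bp. The share was 84.1% in the strongest band of weak distal regions and 16 of 18 in the weakest. With the summits of the replicate lists in place of the pooled ones, it was 83.7%, 79.9% and 77.7% in replicates 1, 2 and 3, of 172, 139 and 157 places. For the regions printed above, the summit was 42 bp to the 3′ side at Awh, 51 bp at lncRNA:CR45755, 36 bp at Vsx1, 86 bp at disco-r and 66 bp at CG42747, and 2 bp to the 5′ side at tai. This, too, is a description of a pattern seen in the data.

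**Figure D4:**
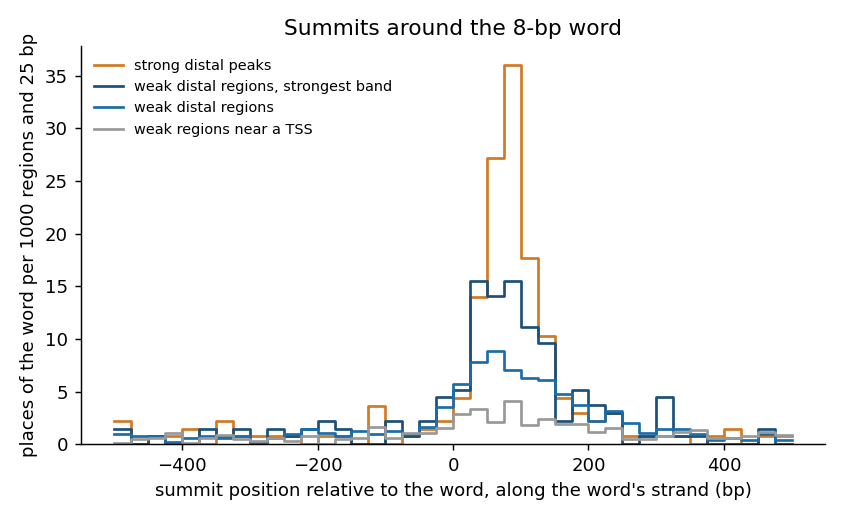
Places of the 8-bp word per 1000 regions in 25-bp bins (vertical axis) by the position of the summit relative to the word along the word's own strand (bp, positive on its 3′ side). Weak distal regions (blue) peak at 8.88 per 1000 between 50 and 75 bp and strong distal peaks (orange) at 36.03 between 75 and 100 bp; the strongest band (dark blue) and weak regions near a TSS (grey) are drawn for comparison.

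Near summits, mean GC content stepped down across the word. At weak distal regions the 100 bp on its 5′ side had 46.4% GC ± 7.46 (SD, n = 200 places) and the 100 bp on its 3′ side 30.1% ± 7.48, and the 3′ side was the lower at 183 of 200 places (91.5%). The same step was found at the word in strong distal peaks, from 46.2% to 28.8%. It was smaller at the 2188 places outside pooled regions, from 44.9% to 38.1%, where the 3′ side was the lower at 65.2%. The places near summits were chosen for a summit within 100 bp, which was mostly on the 3′ side and where mean GC content dipped. Whether the larger step is more than that dip was not tested.

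Among the other motifs, the A-rich and T-rich ones were more frequent at weak distal summits than in their flanks. The TATA box, the sequence that places transcription start at many regulated promoters, was found in 13.8% against 10.3% (exact test, adjusted p = 3.95e-08), the A tract in 17.5% against 13.4% (adjusted p = 3.95e-08), the Motif 6 core in 9.72% against 6.79% (adjusted p = 1.38e-07) and the AT repeat in 5.31% against 4.31% (adjusted p = 0.0261). The AT repeat call was lost without replicate 2 (exact test, adjusted p = 0.0562), without replicate 3 (adjusted p = 0.345), over 5000 bp from a TSS (adjusted p = 0.434), in the stronger 2 bands (adjusted p = 0.206) and in regions held by all 3 lists (adjusted p = 0.0726). The CTCF core (6.00% against 8.46%, exact test, adjusted p = 2.57e-06) and GAGA (2.02% against 2.91%, adjusted p = 0.00784) were less frequent, the latter not past the threshold without replicate 1 (adjusted p = 0.0981) or with windows of 50 bp (adjusted p = 0.168) or 200 bp (adjusted p = 0.929) on each side. Windows at the summit had 3.00 percentage points less GC than their flanks, and the part of that difference in these counts was not tested.

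The Su(Hw) core, the Motif 1 core and the DRE were each found at under 2% of weak distal summits. The Su(Hw) core, bound by an insulator protein, was at 86 summits (1.59%) against 46 downstream windows (0.851%, exact test, adjusted p = 0.00129), and this call was lost with flanks 500 bp (adjusted p = 0.0795) or 2000 bp away (adjusted p = 0.0626) and with a window of 200 bp on each side (adjusted p = 0.0802). The Motif 1 core, found at promoters of housekeeping genes, was at 14 summits (0.259%) against 2 downstream windows (exact test, adjusted p = 0.00784), a ratio of 7.00. This call was lost under 5 alternatives. By the same exact test, the ratio was 2.00 over 1000 bp from a TSS (adjusted p = 0.218), 4.50 over 5000 bp (adjusted p = 0.123), 2.33 with flanks 2000 bp away (adjusted p = 0.144), 2.00 with a window of 200 bp on each side (adjusted p = 0.166) and 8 with one of 50 bp (adjusted p = 0.0586). The ratio was 10 without replicate 1 and 11 without replicate 2, while without replicate 3 no downstream window held it. The DRE, another element of housekeeping promoters, was at 35 summits (0.648%) against 25 downstream windows (exact test, adjusted p = 0.306). The DRE and the Motif 1 core were less frequent than at weak regions near a TSS, where the DRE was in 3.96% (odds ratio 0.158, exact test, adjusted p = 1.77e-34) and the Motif 1 core in 1.97% (odds ratio 0.129, adjusted p = 1.30e-19). The region in an intron of S, the gene Star of EGF receptor signalling, held the Motif 1 core and the Su(Hw) core next to each other. Capitals mark the Motif 1 core in the first line and the Su(Hw) core in the second, which is on the opposite strand.
S intron with Motif 1 core, chr2L:1065191-1065251, minus strand: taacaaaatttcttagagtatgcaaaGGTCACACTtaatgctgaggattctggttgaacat
S intron with Su(Hw) core, chr2L:1065201-1065261, plus strand: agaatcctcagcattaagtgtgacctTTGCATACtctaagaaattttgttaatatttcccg

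Compared with strong distal peaks, weak distal regions held the TATA box less often (13.8% against 20.0%, odds ratio 0.643, exact test, adjusted p = 3.09e-07) and the E-box CAGCTG, a site of bHLH proteins, more often (7.16% against 4.63%, odds ratio 1.59, adjusted p = 0.00316). In the downstream windows of strong distal peaks the TATA box was in 10.9% and the E-box in 6.32%. Mean GC content at weak and strong distal summits was 37.7% and 34.1%, and its part in these differences was not tested. The E-box was in 7.49% of the downstream windows of weak distal regions, so its share at weak summits did not differ from the flanks past the threshold (exact test, adjusted p = 0.571), and its call against strong peaks was lost without replicate 2 (adjusted p = 0.266), in the stronger 2 bands (adjusted p = 0.160), in regions held by all 3 lists (adjusted p = 0.213) and with a window of 200 bp on each side (adjusted p = 0.140). The Zelda, Grainyhead, AP-1 and CA repeat motifs passed neither comparison, with shares at weak summits of 0.777%, 0.204%, 4.44% and 4.29%. Within the weak regions the E-box was in 5.33% of the strongest band and 7.77% of the weakest (exact test, adjusted p = 0.0309), and the TATA box in 17.6% and 12.7% (adjusted p = 0.00176).

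**Figure D5:**
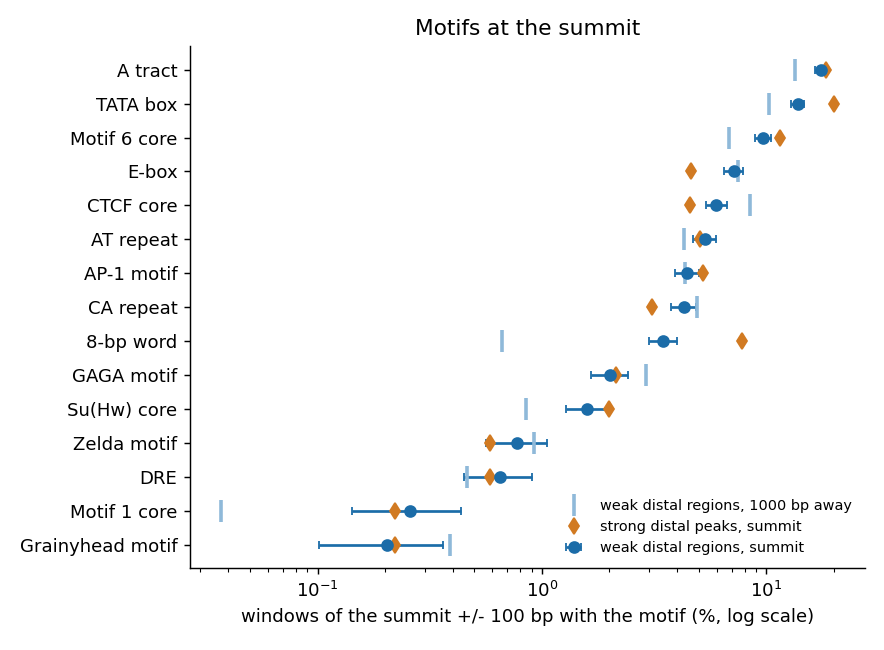
Share of 201-bp windows that hold each motif (%, log scale) at weak distal summits (blue points with 95% exact binomial intervals), in the windows 1000 bp downstream (light blue ticks) and at strong distal summits (orange diamonds). The 8-bp word stands at 3.48% against 0.666% downstream and the A tract at 17.5% against 13.4%.

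Weak distal regions were less often close to an IDR peak than strong ones were to another IDR peak. An IDR summit lay within 5000 bp of 1955 of them (36.2%), while 707 strong distal peaks (52.0%) had another within that distance (odds ratio 0.524, adjusted p = 2.14e-25, Fisher's exact test over 8 shares). Within 1000 bp the shares were 7.03% and 12.6% (exact test, adjusted p = 2.65e-10). Summits more than 10000 bp from a TSS made up 24.5% of weak and 20.0% of strong distal regions (odds ratio 1.30, exact test, adjusted p = 0.000646). Beyond 50000 bp there were 33 weak regions and no strong peak, and of these 33, 5 lay in Myo81F, a gene with very long introns next to the centromere. The 5 of the 33 that all replicate lists held lay in heph (2 regions), CG43759, kek5 and Myo81F.

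Summits within 500 bp of a transcript end were found in 264 weak regions (4.89%) and 40 strong ones (2.94%, odds ratio 1.69, exact test, adjusted p = 0.00200). The call was lost without replicate 2 (odds ratio 1.28, exact p = 0.207) and without replicate 3 (1.38, exact p = 0.0942), and for regions over 5000 bp from a TSS the direction turned (0.924, exact p = 0.779). At least 50% of the window was masked as repeat in 4.48% of weak and 4.41% of strong distal regions (odds ratio 1.02, exact test, adjusted p = 1.00). Summits inside annotated transposable elements were few, 57 weak (1.05%) and 3 strong (0.221%, exact test, adjusted p = 0.00200). The 3 were in CG33298, in kek5 and near ppk. The share of sequence far from a TSS inside such elements is not given, and this call was not tried under the alternatives. Of the 57, 29 lay in copies of INE-1, a short and very common fly element.

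Chromosome 4, the small and largely heterochromatic chromosome, held 55 weak distal regions (1.02%) and 4 strong ones (0.294%, adjusted p = 0.0246, Fisher's exact test, Benjamini-Hochberg over 6 arms). The X chromosome held 906 (16.8%) against 285 (20.96%, exact test, adjusted p = 0.00233). Neither arm passed among regions held by both other lists without replicate 1, 2 or 3. Per Mb of sequence far from a TSS, chromosome 4 had 57.5 weak distal regions, within the range of 53.5 to 74.7 of the other arms, and 4.18 strong ones against 12.5 to 18.9. The strongest weak region of chromosome 4 lay 3201 bp from the TSS of zfh2, a homeodomain and zinc finger gene, with signals of 40.6, 21.7 and 47.9 in replicates 1, 2 and 3. A coding exon of fuss held the next, and an intron of pan, the TCF of the Wingless pathway, held the only chromosome 4 region with the 8-bp word. The 4 strong ones were in Cals and near zfh2, fuss and another annotated gene. No region lay on the Y chromosome.

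Gene bodies with weak distal regions were 1451 of 17947 annotated genes (8.08%), and 5767 genes had any sequence far enough from a TSS to hold one. In all, 3741 regions lay in at least 1 gene and 53 genes held 10 or more. Over all genes there were 6.77 weak distal summits and 1.69 strong ones per 100 kb of gene body far from a TSS, counting a summit once for each gene that holds it. The gene with most was kirre, an immunoglobulin-type adhesion protein of myoblast fusion, with 43 regions in the 301 kb of its body far from a TSS (14.3 per 100 kb) and 12 strong peaks. It was followed by jing, a zinc finger gene, with 24 (24.9 per 100 kb), by fz, a Wingless receptor, with 23 (27.3 per 100 kb), and by hth, a homeodomain partner of the Hox proteins, with 22 (18.1 per 100 kb). The densest of the first 15 genes were px with 18 regions (33.2 per 100 kb) and bun, a TSC22-family factor, with 18 (30.96 per 100 kb) and no strong distal peak. The remaining ones, with 16 to 20 regions each, were lncRNA:CR44357, lncRNA:CR44999, lncRNA:CR32773, pum, which represses translation, CG42238, Tet, fz2, CG43658 and Sema1a.

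Weak distal regions per 100 kb of gene body far from a TSS were set beside those of all genes together (6.77). Hox, segmentation, ecdysone response, early neural and muscle, and axon guidance genes held more, and ion channel and cadherin genes fewer. Strong distal peaks in the same lists, in that order, numbered 8, 6, 28, 13, 26, 1 and 3, beside 991 over all genes. Whether the densities of weak and strong distal regions differed by list was not tested. These are counts with no test, and counts per gene give another order. The median gene held 3.5 in the ecdysone list, 3 in the axon guidance list, 2.5 in the Hox list, 1 in each of the early neural and muscle, cadherin and ion channel lists, and 0 among segmentation genes, as among all annotated genes. Of 8 Hox genes 7 held 33 regions, 12.6 per 100 kb, with 13 in Antp, 8 in Ubx, 4 in pb and 3 in lab. Early neural and muscle regulators had 52 regions in 12 of 23 genes (13.1 per 100 kb), led by hth with 22, the mesoderm regulator twi with 7, Mef2 with 6 and fne with 4. Segmentation genes had 14 regions in 5 of 22 genes (10.9 per 100 kb), with 5 in nkd, 4 in inv, 3 in ptc and 1 in Kr. Ecdysone response genes had 55 in 11 of 14 genes (9.99 per 100 kb), with 12 in ftz-f1, 8 in each of Eip74EF and Eip75B and 6 in EcR, and 28 strong distal peaks besides.

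Axon guidance and neuronal adhesion genes had 86 regions in 18 of 22 genes (8.01 per 100 kb), with 16 in Sema1a, 13 in Ten-a, 9 in Nrg and 6 in Fas2. Cadherin genes had 21 in 9 of 15 (4.58 per 100 kb), with 5 in CadN, 4 in stan, and 3 each in CadN2 and ds. Ion channel genes had 34 in 13 of 17 (4.43 per 100 kb), with 8 in nAChRalpha6, 5 in Sh and 4 each in Shab and nAChRalpha1, beside 1 strong distal peak. None of the 92 cytoplasmic ribosomal protein genes held one, and only 4 of them had any sequence more than 2000 bp from a TSS, so that list could hardly hold any.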

How the data were processed

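Per the file headers, the authors used 1 control alignment for every list: each replicate list came from the alignment of that replicate, the pooled list from the 3 alignments together, and the IDR list was derived from these. Each region has the authors' deposited signal, on a scale not given in the sources used here, and a deposited −log10 q-value. Which aligner and peak caller ran, and at what IDR threshold, is not given there either. Read counts were not used, so depth is unknown and intervals cover counting error only. The dm3 lists were not analysed here.

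Coordinates are dm6, with genes from Ensembl release 115 and sequence and masking from the RefSeq copy of the assembly. Members, motifs, gene lists and tests were chosen with earlier results of these data known. Overlap meant 1 bp. Summits were classed as UTR (5′, then 3′), exon (coding, then non-coding), intron or intergenic, the first that applied. Shares were compared by Fisher's exact tests, windows with their flanks by exact McNemar or sign tests, with Benjamini-Hochberg adjustment called below 0.05. Intervals of shares are 95% Clopper-Pearson. Genes were named if they held or were nearest to the 15 strongest and 10 weakest regions, were among the 15 with most summits or the first 4 of a list, or lay behind counts of 5 or fewer. In lists, 2 symbols were matched through an older name. The word's context, its side of the summit, and the genes named for chromosome 4, for the farthest regions and for word-bearing regions were chosen after seeing the data. The tests were tried on simulated data. Tools were scipy 1.17.1 for tests, pandas 2.3.3 and numpy 2.4.6 for tables, statsmodels 0.14.6, and matplotlib 3.10.9 for figures, under Python 3.11.15.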

Additional observations from a re-analysis of the deposited data

How the results depend on the processing

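Across 28 results and 317 alternative values, 263 kept their direction and their side of the threshold or, for counts of calls, stayed within 1.5 times and, for shares with no test, within the 95% interval. The count of classes, 3, was thus counted as kept where it was 2 (over 5000 bp, in the stronger 2 bands, without replicate 1 and without replicate 2). No paired analysis was possible because the replicates form 1 group. The share held by all 3 replicate lists was 67.5% for the stronger 2 bands, 51.5% to 54.9% when 1 replicate was left out and both others were asked for, 33.8% with summits within 200 bp, 34.0% with overlap of at least 50% of both regions and 31.4% with replicate lists cut to the pooled length. Among regions held by all 3 lists no class passed (0 against 3), the coding-exon odds ratio was 3.33, and the gene-end odds ratio was 1.22. The latter was 1.21 with protein-coding TSS only, 1.28 to 1.64 when 1 replicate was left out, and 0.924 beyond 5000 bp. The masked share, never past the threshold, turned to odds ratios of 0.864 beyond 1000 bp, 0.967 with protein-coding TSS, 0.992 without chromosome 4 and 0.939 with windows of 50 bp on each side. Motifs that differed from strong distal peaks were 5 beyond 1000 bp against 3. For the 8-bp word that odds ratio was 0.860 with windows of 50 bp on each side, and the summit was on its 3′ side at 72.8% of places. Arms that passed fell from 2 to 1 beyond 5000 bp and to 0 in the stronger 2 bands, when any 1 replicate was left out, and in regions held by all 3 lists. GAGA turned to a ratio of 1.01 with a window of 200 bp on each side. Leaving out a replicate kept only regions in both other lists, more of which were in the strongest band. No ratio exists for coding exons beyond 5000 bp, where no strong peak lay in one, nor for the Motif 1 core where no flank held it (without replicate 3, and in regions held by all 3 lists). The cause of these changes was not tested.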
